A study of Mus musculus with 4 samples.

Results

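The genes of DNA replication and mitosis were followed in mouse embryonic fibroblasts (MEFs) with and without Ip6k1, the gene of inositol hexakisphosphate kinase 1. The set held 45 genes named for their known roles, 19 that act in S phase and 26 that act in mitosis, out of 27827 gene names on the array. Each gene was taken at its probe with the highest mean signal, and all 45 genes were found, on 72 probes in all. The chosen probe was detected, meaning well above background, in all 4 lines for each of the 45 genes, and 65 of the 72 probes entered the test.

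RNA was compared between 2 Ip6k1+/+ and 2 Ip6k1-/- lines, labelled replicates 1 and 2 of each genotype, each hybridised in a single colour (Cy3) to 1 whole-genome Agilent array, with all 4 arrays on 1 slide. Every line came from a different E14 embryo of the same heterozygous cross, was immortalised with SV40 large T antigen and was harvested while growing exponentially. The controls therefore carry the same viral oncoprotein as the knockout lines, and 1 line stands for 1 embryo. Large T antigen binds the pocket proteins of the retinoblastoma family, which hold back many of the genes described here, so that the levels below are those of T antigen-expressing cells. The RNA came from whole cultures, in which a change in the share of cells in a phase of the cycle and a change in transcript per cell cannot be told apart.

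Cells load the replicative helicase at origins in G1, fire the origins in S phase and, once replication is complete, build a spindle on which the copied chromosomes are drawn apart. Transcription follows this order. Genes for replication are switched on at the entry into S phase by E2F transcription factors once pocket proteins release them. Genes for mitosis are switched on later, by complexes that contain B-Myb and FOXM1 and that act through a sequence called the cell cycle genes homology region (CHR), often close to CCAAT boxes bound by NF-Y.

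The promoters of both classes differed in the short words they held. Promoter sequences, from 250 bases before to 50 bases after the annotated start of transcription, were taken from RefSeq (GRCm38.p6) and were matched for 36 of the 45 genes. On both strands, a promoter was searched for the E2F words TTTCCCGC, TTTCGCGC, TTTGCCGC and TTTGGCGC, for the CHR words TTTGAA and TTCGAA, and for CCAAT, and a gene was counted if any of its listed promoters held the word. An E2F word lay in 7 of 15 S-phase promoters (46.7%) and in 0 of 21 mitotic promoters, against 2.61% of the 27025 genes of the table. A CHR word lay in 3 of 15 S-phase promoters (20%) and in 16 of 21 mitotic promoters (76.2%), against 21.7% of all genes. A CHR word together with a CCAAT box lay in 3 S-phase and 14 mitotic promoters (66.7%), against 9.65% of all genes. CCAAT boxes alone were found in 9 of 15 S-phase and 16 of 21 mitotic promoters, against 41.1% of all genes. These are matches of letters and not measured sites of binding.

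The following promoter stretches, 150 bases before to 30 bases after the start and written 5′ to 3′ along the gene, show this contrast: Mcm6 holds the most E2F words and Top2a the most CHR words of the set, and Cdc6 and Cdc20 had the largest difference between genotypes in theirs. Capitals mark E2F words, CHR words and CCAAT boxes, read on either strand. The stretch of Mcm6, at chr1:128359676-128359855 on the minus strand, holds 3 E2F words, of which the first pair overlaps, and 2 CCAAT boxes. That of Cdc6, at chr11:98908001-98908180 on the plus strand, holds 1 E2F word. That of Cdc20, at chr4:118437314-118437493 on the minus strand, holds 1 CHR word and 2 CCAAT boxes. That of Top2a, at chr11:99024160-99024339 on the minus strand, holds 3 CHR words and 4 CCAAT boxes.
Mcm6: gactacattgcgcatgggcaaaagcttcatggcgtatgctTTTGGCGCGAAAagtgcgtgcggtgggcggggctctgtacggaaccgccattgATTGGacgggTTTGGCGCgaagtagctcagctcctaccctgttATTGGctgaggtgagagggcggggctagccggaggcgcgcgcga
Cdc6: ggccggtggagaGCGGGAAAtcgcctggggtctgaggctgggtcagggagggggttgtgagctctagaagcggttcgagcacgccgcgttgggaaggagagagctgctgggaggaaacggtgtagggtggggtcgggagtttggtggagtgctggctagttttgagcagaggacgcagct
Cdc20: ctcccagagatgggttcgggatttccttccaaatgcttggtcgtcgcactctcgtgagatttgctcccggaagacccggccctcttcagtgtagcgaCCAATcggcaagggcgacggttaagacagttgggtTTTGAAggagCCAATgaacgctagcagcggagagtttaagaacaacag
Top2a: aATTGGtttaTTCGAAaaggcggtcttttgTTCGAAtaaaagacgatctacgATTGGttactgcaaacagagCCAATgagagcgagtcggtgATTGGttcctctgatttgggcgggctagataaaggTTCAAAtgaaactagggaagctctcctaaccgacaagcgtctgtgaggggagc

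Values are log2 of the background-corrected spot signal after subtraction of the 75th percentile of each array, so that 0 is the 75th percentile and 1 unit is a factor of 2. They compare lines for a given probe and not genes with each other. That percentile ranged from 607 to 746 signal units, and 52.0% to 55.5% of probes were detected per array. The targeted gene matched the labels: 2 of its 3 probes were detected in the Ip6k1+/+ lines alone (limma adjusted p = 0.0348 for both), and the third was at 2.46 and 2.61 in these and at -1.98 and -1.22 in the knockout lines. All 8 fibroblast markers were well above background in every line, with a summed log2 level of 8.86 to 8.89 in the Ip6k1+/+ and 8.65 to 8.76 in the Ip6k1-/- lines, though Col1a1 and Col1a2 were saturated on 4 arrays and Vim on 3. Of these markers, Col3a1, Pdgfrb and Fn1 had both knockout lines below both controls, with differences of -1.26, -1.20 and -0.29, and none was called by the adjusted p in limma (0.994, 0.797 and 0.994). The sum follows the brightest markers, and others varied widely between lines of a genotype. Thy1 was at 1.42 and 6.02 in the control against 3.98 and 5.52 in the knockout lines, and Pdgfra at 0.21 and -2.19 against -1.08 and -2.33. Cdh1, Pecam1, Cdh5, Tek, Ptprc, Csf1r and Emr1, markers of epithelial, endothelial and blood cells, were not well above background in any line. Neither was any of 4 skeletal muscle markers. The epithelial Epcam and Krt8 and the neural Sox10 were well above background on 1 array each, and the neural Sox2 on 2. Sox2 was at -2.05 and -4.69 in the control against -5.37 and -6.85 in the knockout lines (adjusted p = 0.994 in limma). The epithelial Krt18, the endothelial Kdr, the macrophage Cd68 and the neural Nes and Tubb3 were well above background in every line. The summed levels of the 4 epithelial and of the 4 neural markers overlapped between genotypes. Those of the 4 endothelial markers were -3.43 to -2.98 in the control against -2.60 to -1.41 in the knockout lines. Those of the 4 macrophage markers were -2.56 to -2.33 against -2.30 to -1.59. Both sums rest mainly on 1 gene, since the other markers of these lists were not well above background in any line. Kdr was at -3.65 and -3.99 in the control against -2.94 and -1.59 in the knockout lines (adjusted p = 0.994 in limma). Cd68 was at -3.06 and -2.63 against -1.82 and -2.52 (adjusted p = 0.994 in limma). The part of other cells in the results was not tested.

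No gene of the set differed between genotypes in limma's test. The adjusted p-values, corrected by the Benjamini-Hochberg method over the 21573 probes detected in both lines of 1 genotype or of both, ran from 0.994 to 0.997. With the threshold set at an adjusted p of 0.05, limma called 0 of the 45 genes higher, where 0% of all probes tested were called higher, and 0 lower, where 0.0139% were. At an unadjusted p under 0.05, 0 of 45 were called in either direction, where 1.27% of probes were called higher and 2.08% lower. No member reached a difference of 2-fold, where 1.83% of probes tested were at least 2-fold higher and 4.14% at least 2-fold lower in Ip6k1-/- MEFs. With 2 lines against 2, an exact permutation test of a single value cannot go below p = 0.333.

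The differences were small but ran mostly in the same direction. The mean was higher in Ip6k1-/- MEFs for 42 of the 45 genes, 18 of 19 in S phase and 24 of 26 in mitosis, where 55.9% of all probes tested were higher. The median difference was 0.20 over all members, a factor of 1.15, beside a median of 0.05 over all probes tested. S-phase genes had a median difference of 0.20 and mitotic genes one of 0.19, so that both classes lay 0.01 apart. Single genes ranged from -0.10 to 0.64. Their median standard error was 0.23, and 27 of the 45 differences were smaller than their own standard error. The 95% interval of the difference included 0 for all 45 genes, with a median reach of 0.60 to either side, and it included a 2-fold change in one direction for 8 of them. These values came from 2 lines a genotype, and the members share the same 4 arrays and cultures, so that their common direction is 1 observation per line and not 45.

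**Figure D1:**
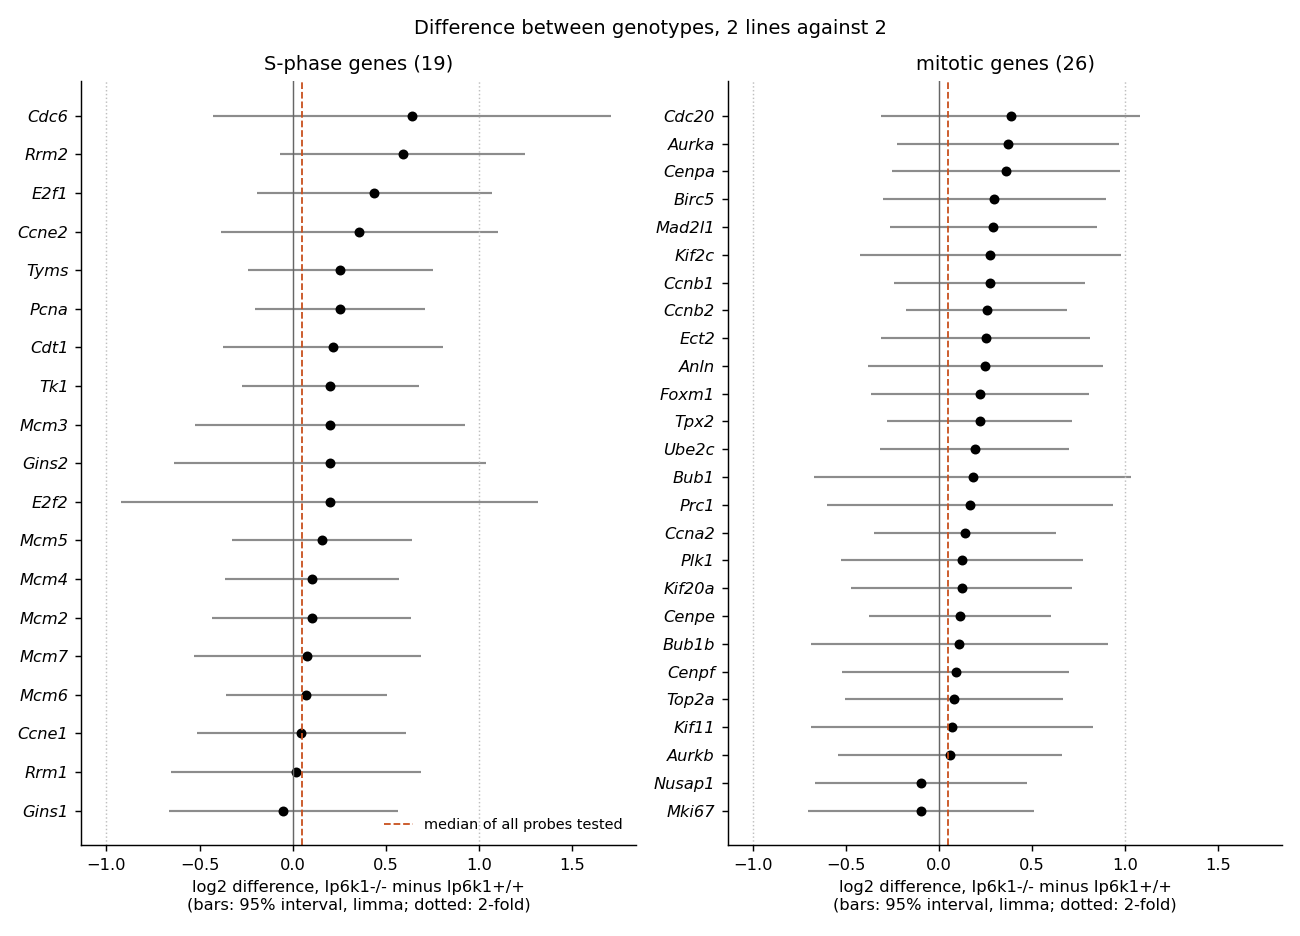
Difference between genotypes for each gene on the log2 scale, Ip6k1-/- minus Ip6k1+/+, with points for the difference of the means of 2 lines and bars for its 95% interval in limma, for 19 S-phase genes (left) and 26 mitotic genes (right). All 45 intervals include 0, 42 points lie above 0, and the dashed line marks the median of all probes tested, 0.05.

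**Figure D2:**
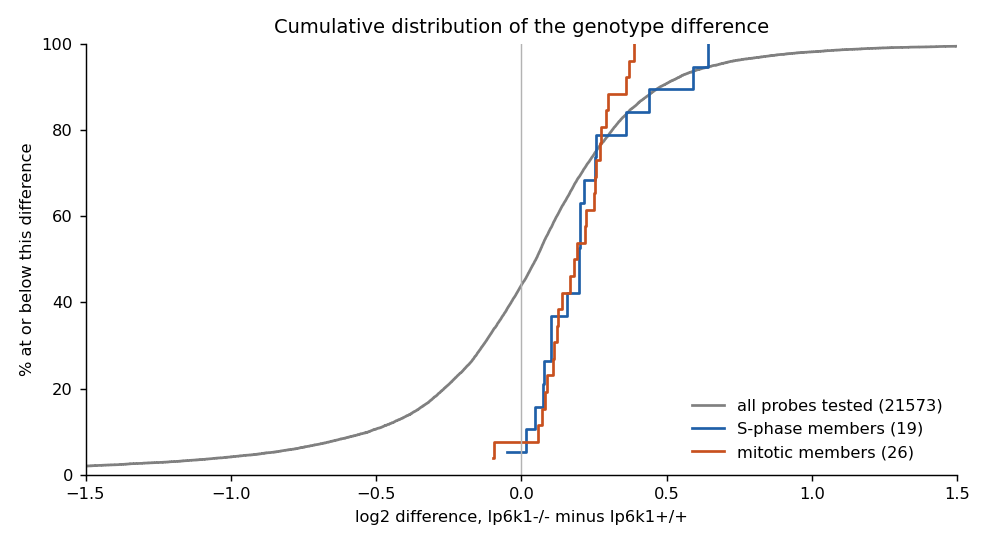
Cumulative percentage of genes or probes at or below each log2 difference between genotypes, for the 19 S-phase genes, the 26 mitotic genes and all 21573 probes tested, shown between -1.5 and 1.5. Both classes run from about the same low values, up to 0.64 for S-phase and 0.39 for mitotic genes, with medians of 0.20 and 0.19 against 0.05 for all probes.

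The Mcm genes encode the subunits of the replicative helicase, which unwinds DNA ahead of the fork. All 6 had a mean difference above 0, from 0.07 to 0.20, with a median of 0.10. Mcm2 was at 2.85 and 3.05 in the control lines (replicates 1 and 2, the order used throughout) against 2.93 and 3.16 in the knockout lines. Mcm3 was at 4.93 and 4.78 against 4.72 and 5.40. Mcm4 was at 5.54 and 5.77 against 5.73 and 5.79. In these genes the lines of both genotypes overlapped, and for Mcm3 the Ip6k1-/- lines were respectively the lowest and the highest of the 4. Mcm5 was at 4.36 and 4.42 against 4.43 and 4.67, without overlap, although the second control and the first knockout line were nearly equal. Mcm6 was at 6.68 and 6.53 against 6.71 and 6.66, with a saturated spot on the array of replicate 2 of each genotype, so that its differences may be understated. Mcm7 was at 5.42 and 5.79 against 5.50 and 5.87, where the gap between lines of a genotype was larger than that between genotypes. The difference was 0.20 for Mcm3 (standard error 0.28) and 0.08 for Mcm7 (standard error 0.23), which had the largest and nearly the smallest difference of the helicase genes.

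The sliding clamp and the enzymes that supply deoxynucleotides had a median difference of 0.25 over 5 genes. Both Ip6k1-/- lines were above both Ip6k1+/+ lines for 4 of them, an arrangement found for 18.4% of all probes tested. Pcna, the clamp that tethers the polymerases to DNA, was at 6.01 and 6.21 against 6.31 and 6.42, a difference of 0.25 (standard error 0.17). Tyms, the thymidylate synthase, was at 4.64 and 4.42 against 4.70 and 4.87, a difference of 0.26 (standard error 0.19). Rrm2, the small subunit of ribonucleotide reductase and the one whose abundance follows S phase, was at 2.66 and 2.14 against 3.03 and 2.95. Its difference of 0.59, a factor of 1.51, had a standard error of 0.25, a 95% interval from -0.07 to 1.25 and the lowest unadjusted p of the set, 0.0680 in limma. In all 3 of these genes both knockout lines were above both controls, and for Rrm2 the control lines themselves lay 0.53 apart. The large subunit of the same enzyme, Rrm1, differed by 0.02 with its genotypes overlapping, and Tk1, the salvage thymidine kinase, by 0.20 without overlap.

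Origin licensing and the GINS complex gave the widest range. Cdc6, which helps load the helicase onto origins, had the largest difference of the set, 0.64, or a factor of 1.56 (standard error 0.41, 95% interval -0.43 to 1.71). It was at 0.11 and 0.59 in the control lines against 0.51 and 1.47 in the knockout lines. The genotypes overlapped, since the first knockout line lay below the second control line, and the knockout lines differed from each other by 0.96, more than the genotypes did. A second Cdc6 probe differed by 0.74, without overlap. Cdt1, the partner of Cdc6 in licensing, differed by 0.22, and Gins2, a subunit of the GINS complex that activates the loaded helicase, by 0.20, both with overlapping genotypes. Gins1, of the same complex, was at 2.15 and 1.83 against 1.79 and 2.08, a difference of -0.05 (standard error 0.24). A second Gins1 probe differed by 0.18, so that the direction for this gene depended on the probe. None of these 4 genes separated the genotypes on its chosen probe. Of all probes tested, 18.4% did with the knockout lines above and 12.8% with them below.

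Cyclin E and the activating E2F factors drive the entry into S phase. E2f1, itself an E2F target, was at 0.84 and 1.14 against 1.29 and 1.56, a difference of 0.44 or a factor of 1.35 (standard error 0.24, 95% interval -0.19 to 1.07). All 4 lines were ordered by genotype, and a second E2f1 probe differed by 0.36 with overlapping genotypes. Ccne2 was at -0.81 and -1.17 against -0.53 and -0.74, a difference of 0.36 (standard error 0.29), again without overlap. The other cyclin E gene, Ccne1, was at 4.42 and 4.03 against 4.22 and 4.32, with the control lines on either side of both knockout lines and a difference of 0.05 (standard error 0.21). Its second probe differed by -0.08. E2f2 was at -1.01 and -0.62 against -1.12 and -0.12, so that the knockout lines were the lowest and the highest of the 4. The difference of 0.20 for E2f2 had the largest standard error of the set, 0.43.

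Among the mitotic genes, cyclins A and B activate the kinase that drives entry into mitosis, and Foxm1 encodes a transcription factor of this gene class. The 4 genes of this group had a median difference of 0.24. Ccna2 was at 4.48 and 4.23 against 4.47 and 4.52. Ccnb1 was at 2.49 and 2.28 against 2.63 and 2.68, a difference of 0.27 (standard error 0.20), and its 3 probes differed by 0.20 to 0.27. Foxm1 was at 2.19 and 1.82 against 2.22 and 2.22, a difference of 0.22 (standard error 0.22). Ccnb1 and Foxm1 separated the genotypes, as did Ccnb2, which differed by 0.26, with both knockout lines above both controls, beside 18.4% of all probes tested. Ccna2 did not, with the first control line level with the first knockout line. In each of Ccna2, Ccnb1 and Foxm1 the second control line was the lowest of the 4.

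Cdc20 and Ube2c bring about the degradation of cyclin B and securin, through the anaphase-promoting complex, that starts anaphase. Cdc20 had the largest difference among mitotic genes, 0.39 or a factor of 1.31 (standard error 0.27, 95% interval -0.31 to 1.08). It was at 6.08 and 5.43 in the control lines against 6.11 and 6.18 in the knockout lines. The knockout lines were above both controls, but the first control line lay close beneath them and the second far below. Ube2c, the ubiquitin-conjugating enzyme of the complex, differed by 0.19, also without overlap.

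The mitotic kinases and the spindle checkpoint, which delays anaphase until all chromosomes are attached, had a median difference of 0.18 over 7 genes, all above 0. Aurka, the kinase of spindle poles, was at 4.80 and 4.40 against 4.83 and 5.11, a difference of 0.37 (standard error 0.23). Plk1, which acts from mitotic entry to cytokinesis, was at 4.92 and 4.36 against 4.71 and 4.81. Aurkb, the kinase of the chromosomal passenger complex, was at 0.51 and 0.39 against 0.41 and 0.60. Aurka separated the genotypes, although its first control and first knockout line were nearly equal, whereas Plk1 was highest in a control line. Birc5, or survivin, a partner of Aurkb in that complex, was at 5.42 and 4.98 against 5.38 and 5.61, a difference of 0.30 (standard error 0.23) with a small overlap. The differences of Plk1 and Aurkb, 0.12 and 0.06, had standard errors of 0.25 and 0.23. Of the checkpoint genes, Mad2l1 differed by 0.29 without overlap, and Bub1 and Bub1b by 0.18 and 0.11 with overlap.

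On the chosen probes, genes of chromosome structure and of the centromere had the smallest median difference of the 9 groups described. It was 0.09 over 5 genes, close to the 0.10 of the helicase genes. Top2a, the topoisomerase that untangles sister chromatids, was at 1.95 and 1.95 against 1.85 and 2.21, a difference of 0.08 (standard error 0.22). A dimmer Top2a probe differed by 0.24 without overlap. Mki67, the proliferation marker Ki-67 that coats mitotic chromosomes, was at 4.77 and 4.28 against 4.37 and 4.49. Its difference of -0.10 (standard error 0.23) was the lowest of the set, and the first control line was the highest of the 4. A dimmer Mki67 probe differed by -0.15. Cenpa, the histone that marks centromeres, was at 1.63 and 1.24 against 1.80 and 1.79, a difference of 0.36 (standard error 0.23) without overlap. The 2 knockout lines were nearly equal there, and the controls lay 0.39 apart. Cenpf, a kinetochore protein, was at 2.77 and 2.61 against 2.57 and 2.99, a difference of 0.09 (standard error 0.23), while its dimmer probe differed by -0.25. Cenpe, a kinetochore motor, differed by 0.11, and its dimmer probes by 0.28 and 0.27.

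The 8 genes of the spindle and of cytokinesis had a median difference of 0.19. Beside 18.4% of all probes tested, 3 of the 8 had both knockout lines above both controls. These were Kif2c, a microtubule-depolymerising kinesin, with a difference of 0.28, Anln, a scaffold of the contractile ring, with 0.25, and Tpx2, a spindle assembly factor that activates Aurora A, with 0.22. Ect2, Prc1, Kif20a and Kif11 differed by 0.25, 0.17, 0.12 and 0.07 with overlap. Nusap1, a microtubule-bundling protein, was at 2.10 and 2.06 against 1.82 and 2.14, a difference of -0.10 (standard error 0.22). Its second probe differed by 0.08. The first knockout line was the lowest and the second the highest of the 4 lines for Nusap1.

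In total, both Ip6k1-/- lines lay above both Ip6k1+/+ lines for 18 of the 45 genes (40%), 7 in S phase and 11 in mitosis, where 18.4% of all probes tested did. In the opposite arrangement, with both knockout lines below both controls, were 0 members, where 12.8% of probes tested were. The 18 genes were Mcm5, Pcna, Rrm2, Tyms, Tk1, Ccne2, E2f1, Ccnb1, Ccnb2, Cdc20, Ube2c, Aurka, Mad2l1, Cenpa, Foxm1, Kif2c, Anln and Tpx2. The share over all probes describes the array and not what members of a co-transcribed set would give. Of the 22 genes with several probes, 18 had more than 1 probe in the test, and for 4 of these, Gins1, Ccne1, Cenpf and Nusap1, the probes differed in sign. The widest spread of the difference over the probes of a gene was 0.34, for Cenpf.

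The shift was uneven over the lines. After each gene was centred on its mean over the 4 lines, the median deviation of the 45 genes was -0.03 and -0.13 in Ip6k1+/+ replicates 1 and 2 and -0.03 and 0.20 in Ip6k1-/- replicates 1 and 2. Over all probes tested the same medians were -0.02, -0.02, -0.00 and 0.06. The second knockout line was therefore the one that stood above the rest, while the first knockout line was level with the first control line. The second knockout line was the highest of the 4 for 33 of the 45 genes, where it was for 34.1% of all probes tested, and it was above the control mean for 44 genes, where 56.5% of probes were. The first knockout line was above the control mean for 27 of 45 genes, close to the 53.4% of all probes tested. The pooled standard deviation of these medians between lines of 1 genotype was 0.13. The difference of 0.20 between genotypes is the median of the differences of single genes. It is not the difference of these line medians, so that the 2 values are not on the same footing. Without Ip6k1-/- replicate 2 the median difference of all members was 0.07, beside 0.03 over all probes tested, and 27 of 45 genes were above 0, close to the 53.4% of probes tested that were.

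**Figure D3:**
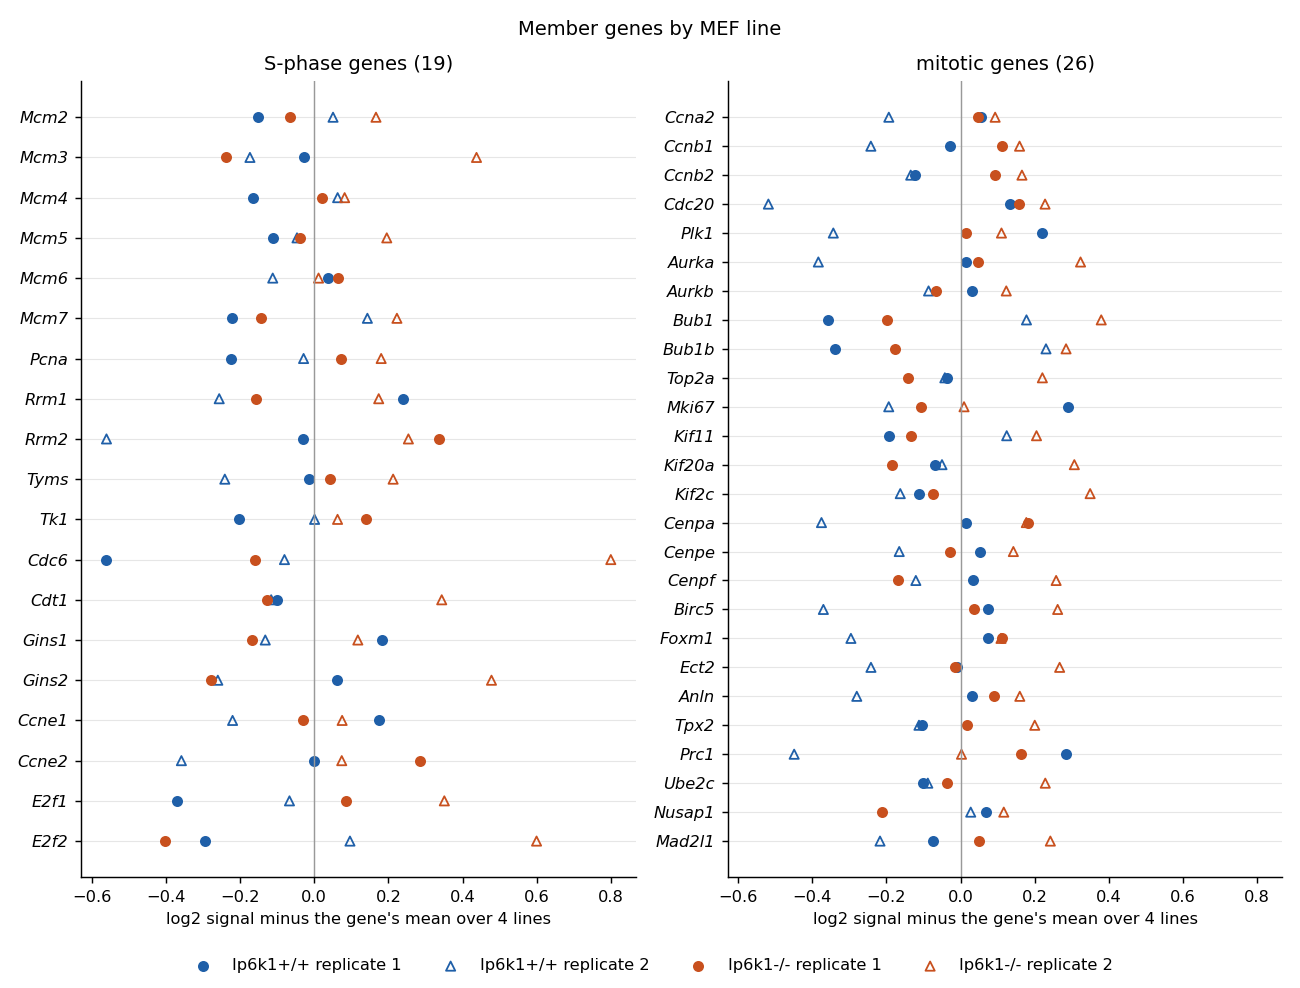
Log2 signal of each gene minus its mean over the 4 lines, for 19 S-phase genes (left) and 26 mitotic genes (right), with blue for Ip6k1+/+ and orange for Ip6k1-/- lines, filled circles for replicate 1 and open triangles for replicate 2. The open orange triangles, Ip6k1-/- replicate 2, are the rightmost point for 33 of 45 genes, and the open blue triangles, Ip6k1+/+ replicate 2, are the leftmost for 24.

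The classes were alike in the genotype difference but not in which control line was low. In S-phase genes the median deviations were -0.10 and -0.11 in the controls against -0.04 and 0.20 in the knockouts. In mitotic genes they were 0.01 and -0.18 in the controls against -0.00 and 0.20 in the knockouts. The second knockout line was thus equally high in both classes, whereas the second control line was the lowest of the 4 for 18 of 26 mitotic genes and 6 of 19 S-phase genes, where it was for 26% of all probes tested. Plk1, Cdc20 and Mki67 were lower in the second than in the first control line by 0.56, 0.65 and 0.48, while Bub1 and Bub1b were higher there by 0.54 and 0.57. The class difference in genotype effect was 0.01. The gap between the class medians of a line varied more than this between lines of a genotype (pooled SD 0.09). Leaving out single lines changed the balance: without Ip6k1-/- replicate 2 the median was 0.04 for S-phase genes, of which 10 of 19 were above 0, beside 53.4% of probes tested, and 0.09 for mitotic genes, and without Ip6k1+/+ replicate 2 the median of the mitotic genes was 0.11. Without Ip6k1-/- replicate 1 that of the mitotic genes was 0.30. Which line differs is a property of these 4 cultures, and its relation to genotype was not tested.

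Genes grouped by their promoter words had similar differences. The 7 genes with an E2F word had a median difference of 0.20, the 19 with a CHR word one of 0.18, and the 12 with a listed promoter and neither word one of 0.25. Mcm7 and E2f2 held both words, those of E2f2 in different listed promoters, and count in both of the first groups. The median deviation in Ip6k1-/- replicate 2 was 0.34 for the 7 genes with an E2F word and 0.22 for the 19 with a CHR word. Of the promoters printed above, those of Mcm6 and Cdc6 belong to the former and those of Cdc20 and Top2a to the latter. Mcm6 itself was not highest in that line, at 6.66 against 6.71 in Ip6k1-/- replicate 1. Both knockout lines were above both controls for 1 of the 7 genes with an E2F word, 7 of the 19 with a CHR word and 7 of the 12 with neither, beside 18.4% of all probes tested. Rrm2 and E2f1, both among the largest differences, held no E2F word in this window.

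Genes of the same processes outside the set gave similar values. Of 48 other replication genes, limma called 0 by the adjusted and 0 by the unadjusted p, while 38 were higher and 10 lower in Ip6k1-/- MEFs with a median difference of 0.17. Over all probes tested, 55.9% were higher. The adjusted p called 0% of them higher and 0.0139% lower, and the unadjusted p 1.27% higher and 2.08% lower. The largest differences were those of Pola1, the catalytic subunit of the primase-polymerase, at 0.68 (standard error 0.61), and Orc2, a subunit of the origin recognition complex, at 0.50 (standard error 0.23). The lowest were those of Prim2, a primase subunit, at -0.33 (standard error 0.37), and Pold1, the catalytic subunit of polymerase delta, at -0.30 (standard error 0.21). Of 64 other mitosis genes, 52 were higher and 12 lower, with a median of 0.17, beside the same 55.9% of probes. At the adjusted threshold 0 were called, and at the unadjusted threshold 1 was called higher, close to the 1.27% of all probes tested. The 1 gene was Ccnf, or cyclin F, which was at -0.27 and 0.04 against 0.60 and 0.78, 0.80 higher on average (standard error 0.25, adjusted p = 0.994 in limma). Kif20b, a kinesin of cytokinesis, differed by 0.65 (standard error 0.35), Cenpk, a centromere protein, by -0.61 (standard error 0.34) and Kifc1, a minus-end kinesin, by -0.29 (standard error 0.21). In both lists Ip6k1-/- replicate 2 had the highest median deviation, 0.23.

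The regulators upstream of these genes showed no such common direction between the genotype means. Of 15 E2F and pocket protein genes other than E2f1 and E2f2, 8 were higher and 7 lower, beside 55.9% of probes tested that were higher. Their median difference was 0.04, with 0 calls at either threshold in limma. The median deviation of these 15 genes was still highest in Ip6k1-/- replicate 2, at 0.22, and was -0.12 in Ip6k1-/- replicate 1. E2f4, a repressive E2F, was at -4.12 and -3.07 against -2.98 and -2.36, a difference of 0.92 (standard error 0.50). Its signal was low, since the lowest values well above background were -5.19 to -4.67 over the 4 arrays. Tfdp1, an E2F dimerisation partner, differed by 0.35 (standard error 0.19). Rbl2, the pocket protein p130, was at -1.60 and -0.95 against -1.79 and -2.17, a difference of -0.70 (standard error 0.37), and Lin37, of the complex that represses cell cycle genes in quiescence, differed by -0.24 (standard error 0.24). Of 12 G1 cyclins, cyclin-dependent kinases and their inhibitors, 5 were higher and 7 lower, with a median of -0.06. Limma made 0 calls at the adjusted threshold. At the unadjusted threshold it called 1 higher, beside 1.27% of all probes tested. Ccnd1, or cyclin D1, was at 2.21 and 0.79 against 2.03 and 3.35, 1.19 higher on average (standard error 0.66, adjusted p = 0.994 in limma), with overlapping genotypes and knockout lines 1.32 apart. Cdk6, its kinase partner, differed by 0.78 (standard error 0.41), and the inhibitors Cdkn2c and Cdkn1b each by -0.37 (standard errors 0.51 and 0.31). The gene with the unadjusted call was the inhibitor Cdkn2b, at 3.61 and 3.55 against 4.35 and 4.03, 0.61 higher on average (standard error 0.20, adjusted p = 0.994 in limma).

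**Figure D4:**
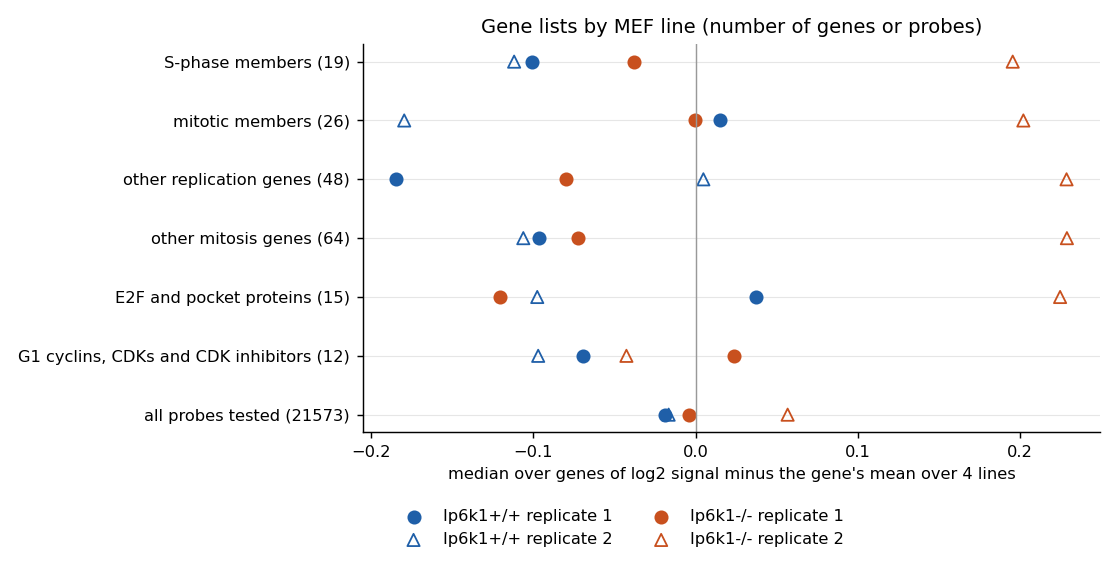
Median over genes of the log2 signal minus each gene's mean over the 4 lines, for both classes of the set, 4 lists of related genes and all probes tested, with 1 point per line (colours by genotype, circles for replicate 1 and triangles for replicate 2). Ip6k1-/- replicate 2 lies between 0.20 and 0.23 in both classes and in 3 related lists, at -0.04 for the G1 list and at 0.06 over all probes.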

How the data were processed

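RNA of 2 Ip6k1+/+ and 2 Ip6k1-/- MEF lines was measured on Agilent 4x44k arrays. The authors deposited the intensity of every spot, read with Feature Extraction 10.5.1.1, and log2 values shifted to the 75th percentile. These deposited log2 values lay 0.08 to 0.10 above those computed here. Here log2 of the processed signal minus that percentile over 43379 non-control spots was used, without outlier spots (96 to 133 an array). Scaling and filter bear on the background: the median difference of all probes tested, 0.05, was 0.10 after centring on array medians and 0.18 with no filter. Genotypes were compared with limma 3.58.1 (lmFit, then eBayes with variance trend, in R 4.3.3). The code was run on simulated probes with independent noise and differences of at least 2-fold. No member reached such a difference, so that this run does not measure how differences of the members' size would be called. The mm9 probe positions and GRCm38.p6 promoter positions were not combined. Members and gene lists were chosen with earlier results of these data known. Line values are given for major genes of each class, for the 4 largest differences in each direction (only 3 were negative) and for genes whose probes differ in sign, and each related list is represented by its 2 highest and 2 lowest differences. Cdkn2b, Bub1, Bub1b and other genes were named after their values were seen. Alternatives were other background corrections, scalings, filters, probes, tests and a replicate block.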

Additional observations from a re-analysis of the deposited data

How the results depend on the processing

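No member was called at an adjusted p of at most 0.05 under any alternative, including quantile and median normalization, the deposited values, outlier spots kept, no variance trend and the methods' t-test. Without single lines the median difference ran from 0.07 to 0.29 for all members, from 0.0412 to 0.27 for S-phase and from 0.09 to 0.30 for mitotic genes, and the S-phase minus mitotic difference from -0.05 to 0.09. Members past 2-fold were then 0 to 1. Members with every remaining Ip6k1-/- line above every remaining control were 19 to 38, and members below 0 to 9. Such an order is easier to reach when fewer lines are compared. The shares of all probes tested were not counted for these settings, so that these counts stand without a background. Probes called over the array, 3 with all lines, were 0 without any 1 of the 4.

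With normexp at offset 50 the medians were 0.41, 0.42 and 0.40 for all, S-phase and mitotic members, with -0.10 over all probes tested and 187 probes called. Its fit took in 5 spots of Ip6k1+/+ replicate 2 that lay below their local background. Without them, an alternative chosen after seeing the data, the median of all members was 0.18 and 0 probes were called. Probes called were also 0 by quantile normalization and by the methods' t-test, and 1 with no filter or with probes above background on all 4 arrays. At an unadjusted p under 0.05, members passed in 4 of these settings: Ccnb2 by the t-test (3.89% of probes tested), Rrm2 and Cdc6 by normexp (4.29%), Rrm2 and Cdc20 without Ip6k1+/+ replicate 1 (3.12%) and Cdc6 without Ip6k1-/- replicate 1 (3.90%).

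Directions turned for Gins1 (0.13 by normexp, 0.00368 by array medians, 0.0648 by the mean of its probes). They also turned for Mki67 and Nusap1 (0.18 and 0.10 by normexp) and for Ccne1 and Cenpf (-0.0171 and -0.0793 by the mean of their probes). By normexp without the spots below local background, Gins1, Mki67 and Nusap1 kept their main direction, at -0.07, -0.09 and -0.11. The cause of these turns was not tested. Of the 28 members given line by line, the difference spanned 0 without single lines for Mcm2 (-0.0136 to 0.22), Mcm3 (-0.14 to 0.54), Mcm4 (-0.0116 to 0.22), Mcm6 (-0.00029 to 0.15), Mcm7 (-0.11 to 0.26), E2f2 (-0.30 to 0.70), Ccne1 (-0.15 to 0.24), Gins1 (-0.21 to 0.11), Plk1 (-0.16 to 0.41), Aurkb (-0.0379 to 0.15), Top2a (-0.10 to 0.26), Cenpf (-0.12 to 0.30), Mki67 (-0.34 to 0.15) and Nusap1 (-0.26 to 0.0687).

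No source pairs lines by replicate number. Replicate 1 minus replicate 2 correlated between genotypes at r = 0.48 across probes, which are not independent. With the number as a replicate block, limma called 3 probes and 0 members, and 2 members, Rrm2 and Cdc6, passed an unadjusted p under 0.05, where 8.14% of probes did. The number of arrays limits every value.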

Other observations

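Several genes of the set differed more between the replicates of a genotype than between genotypes, and in the same direction in both. Bub1 was at 0.99 and 1.52 in the Ip6k1+/+ lines against 1.14 and 1.72 in the Ip6k1-/- lines, and Bub1b, its checkpoint paralog, at 1.53 and 2.09 against 1.69 and 2.15. Whatever the size of the gap, replicate 2 was the higher line in both genotypes for 13 of the 45 genes, and the lower in both for 6. Of the 13, 8 act in S phase and 5 in mitosis. The rest ran in opposite directions, and the share of all probes was not counted. Replicate 2 was above replicate 1 for 14 of 45 genes in Ip6k1+/+ MEFs, where 50.1% of probes tested were. In Ip6k1-/- MEFs it was above for 38, where 56.4% of probes were. Among the regulators, the inhibitor Cdkn1c (p57) had the widest gap between replicates, at -0.26 and 3.09 against -1.21 and 4.10, with a genotype difference of 0.03 (standard error 2.05). These genes were chosen after their values were seen. The median distance between lines of a genotype was 0.25 in Ip6k1+/+ and 0.23 in Ip6k1-/- MEFs over the 45 genes.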
